A study of Mus musculus with 6 samples.

Results

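The data cover 10 genes of fatty acid oxidation and of the peroxisome, followed through 6 dual-colour arrays: Cpt1a, Acadvl, Acadm, Acadsb, Hadhb, Decr1, Eci2, Ech1, Phyh and Pex16. They comprise every probe that the platform annotation gives to these symbols, 14 probes of the 8734 in the table, and are 10 of its 5755 named genes. The genes were chosen by their measured ratios on these same arrays, with earlier results known, so their ratio between the genotypes is given as a description and not tested. Each array set RNA of airway smooth muscle cells from mice that overexpress the beta2-adrenergic receptor (2AR-OE) against RNA of cells from nontransgenic mice (NTG). All cells were primary cultures grown out of tracheal explants in medium with 20% FCS and were taken at passages 8 to 10; more than 90% stained for smooth muscle actin, per the labels. The labels give neither the promoter of the transgene nor the age of the mice, and no agonist is named. The 4 unswapped arrays (1A, 1B, 2A, 2B) held the transgenic sample in Cy5, and the dye-swapped arrays 1C and 2C held it in Cy3. Arrays with the same number are called a set; what the number stands for is not stated, and replicates within a set may be technical, in which case p-values measure only the spread between arrays.

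Fatty acids are burned by beta-oxidation, a cycle that shortens an acyl chain bound to coenzyme A and yields acetyl-CoA and reduced cofactors. Long chains enter the mitochondrion through the carnitine shuttle, whose gate is carnitine palmitoyltransferase; malonyl-CoA, the precursor of fatty acid synthesis, inhibits it. Peroxisomes handle chains that mitochondria cannot start on, such as very long and branched ones. In liver, heart and brown fat, receptors of the PPAR family drive many of these genes, and beta-adrenergic signals through cyclic AMP release the fatty acids that feed the cycle.

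Values are log2 ratios, where 1 means a doubling. The direction is likely transgenic over nontransgenic, because Cy5 held the transgenic RNA on most arrays and transgenic cells are the test condition, but the labels do not settle it; if it is the reverse, every sign turns. It was assumed that 1C and 2C had been brought to the common direction before deposit. Across all probes, arrays of equal orientation correlated with r between 0.313 and 0.697 and arrays of opposite orientation with r between 0.009 and 0.179, all above 0. If the columns had not been turned, the ratios of Cpt1a, Acadsb, Ech1, Phyh and Pex16 would be 0.29, 0.26, 0.18, 0.09 and -0.08. Array 1C scattered most, with a median absolute deviation of 0.369 against 0.189 to 0.277 on the other arrays. All 14 probes had a value on every array, and 0 of these values lay at the floor of the table. A ratio array gives no expression level, so smooth muscle identity could not be checked.

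Of the 10 genes, 5 had higher ratios throughout and 5 did not. Higher ratios on all 6 arrays, with a call in the fit across all genes (limma, adjusted p under 0.05), were found for Cpt1a, Acadsb, Ech1, Phyh and Pex16. Among all 6807 rows of the fit, 4.03% were called higher and 3.09% lower, and 11.2% of the rows with 6 values were above 0 on all 6 arrays; since the same ratios chose the genes, nothing is read from the difference. Acadvl, Acadm, Eci2, Hadhb and Decr1 were not called, and 0 of the 10 genes were called lower. The median fitted ratio of the 10 genes was 0.39, against 0.002 for all rows.

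**Figure D1:**
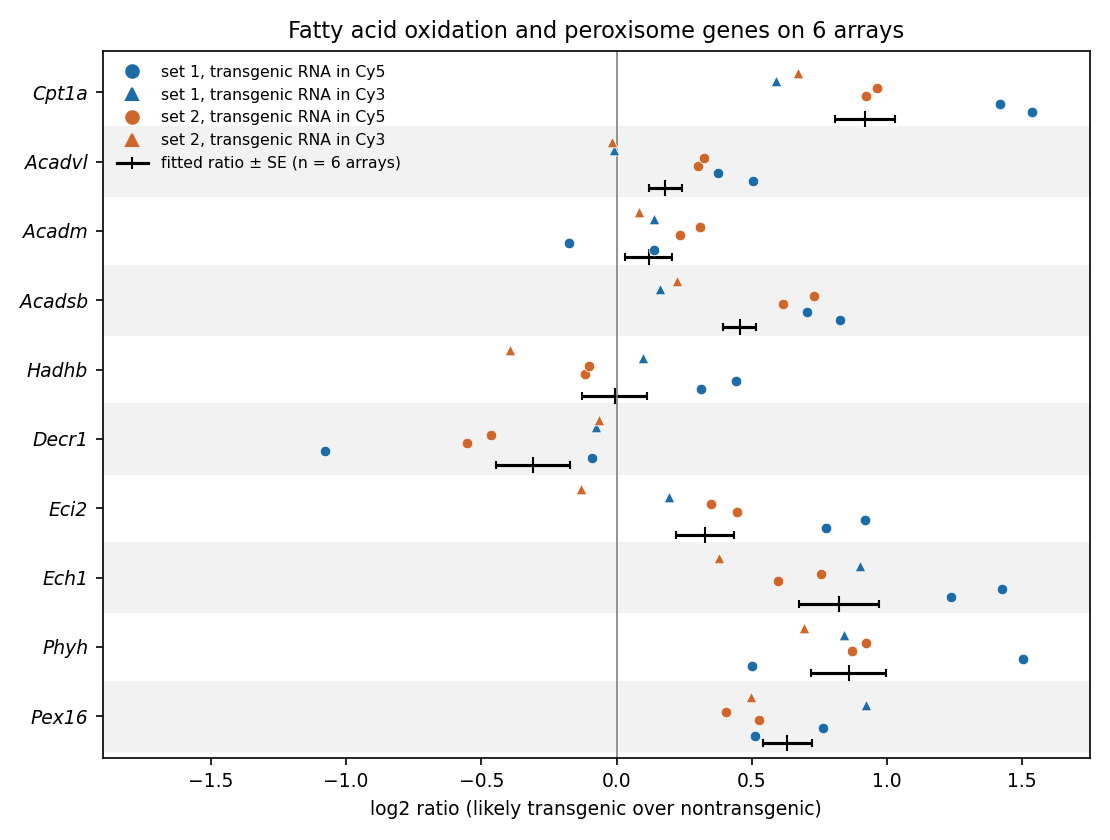
Log2 ratio of each of the 10 genes on each array (points, coloured by set, triangles for swapped dyes) with the fitted ratio and its standard error below them (black, n = 6 arrays). Cpt1a, Acadsb, Ech1, Phyh and Pex16 lay above 0 on all 6 arrays, Decr1 lay below 0 on all 6, and Hadhb was above 0 in set 1 and below 0 in set 2.

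Promoter sequences are shown for 4 genes that hold a short element of interest, with that element in capitals. Each window is the 250 bases before the annotated start, read 5′ to 3′ on the strand of the gene, from RefSeq on GRCm38.p6. The window of Cpt1a lies at chr19:3323051-3323300 (plus strand) and that of Acadsb at chr7:131410351-131410600 (plus strand). The window of Acadvl lies at chr11:70015429-70015678 (minus strand) and that of Acadm at chr3:153944644-153944893 (minus strand). Capitals mark AGGTCA, the core to which nuclear receptors such as the PPARs bind, or its reverse complement, and TGACG, the core of the cyclic AMP response element, or its reverse complement.
Cpt1a: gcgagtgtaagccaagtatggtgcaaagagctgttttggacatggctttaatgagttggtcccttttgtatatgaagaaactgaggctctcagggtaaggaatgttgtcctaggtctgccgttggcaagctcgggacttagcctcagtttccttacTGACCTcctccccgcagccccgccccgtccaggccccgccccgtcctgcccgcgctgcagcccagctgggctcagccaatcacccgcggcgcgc
Acadsb: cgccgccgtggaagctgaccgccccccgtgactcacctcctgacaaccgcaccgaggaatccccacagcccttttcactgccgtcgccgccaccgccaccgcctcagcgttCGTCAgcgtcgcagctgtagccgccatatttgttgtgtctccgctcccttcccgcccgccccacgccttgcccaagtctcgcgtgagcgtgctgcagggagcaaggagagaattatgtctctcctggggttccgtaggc
Acadvl: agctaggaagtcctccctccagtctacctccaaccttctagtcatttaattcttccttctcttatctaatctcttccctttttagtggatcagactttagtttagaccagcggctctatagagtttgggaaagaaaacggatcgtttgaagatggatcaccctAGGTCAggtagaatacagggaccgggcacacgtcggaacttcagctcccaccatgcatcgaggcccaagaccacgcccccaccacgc
Acadm: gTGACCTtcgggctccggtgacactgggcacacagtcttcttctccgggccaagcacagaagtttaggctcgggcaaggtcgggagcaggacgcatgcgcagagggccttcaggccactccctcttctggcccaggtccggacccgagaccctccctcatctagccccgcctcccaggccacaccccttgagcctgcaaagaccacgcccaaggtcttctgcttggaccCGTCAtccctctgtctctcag
Windows from 250 bases before to 50 bases after the start were searched on both strands for 9 of the 10 genes, in 10 windows, because Pex16 has 2 and the table holds no entry for Decr1. AGGTCA was found for Cpt1a, Acadvl, Acadm and Phyh, where it lay 37 bases after the start, and in 16.3% of all 32851 windows. TGACG was found for Acadsb and Acadm and in 20.8% of all windows. The full cyclic AMP element TGACGTCA, which contains TGACG, was in 1.79% of all windows. The PPAR element, AGGTCA repeated after a gap of any 1 base, was in 0.0396%, and the ERR element TCAAGGTCA, which contains AGGTCA, in 0.423%. The E-box CACGTG was in 7.15% and the palindromic NRF1 element in 0.971%. These 5 elements were in 0 of the 10 windows. The GC box GGGCGG was found for Cpt1a, Acadsb, Ech1, Eci2, Hadhb and Pex16, and in 35.7% of all windows. The 10 windows were also richer in G and C, with a median of 58.8% against 52.7% for all windows. Nothing is read from the share with a GC box. CCAAT was found for Cpt1a, Eci2 and Pex16 (37.4% of all windows) and TATAAA for Pex16 (13.6%). A match here describes letters and not a bound site.

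Cpt1a, the carnitine palmitoyltransferase of the outer mitochondrial membrane and the gate of the pathway, had the highest ratio of the 10 genes in the direction taken here; with 1C and 2C turned, Eci2 (0.30) and Cpt1a (0.29) stood nearly level. With the unswapped arrays first (1A, 1B, 2A, 2B) and then 1C and 2C, an order kept for every gene, it stood at 1.54, 1.42, 0.92, 0.96, 0.59 and 0.67, a fitted ratio of 0.92 ± 0.11 (SE, n = 6), or 1.89-fold. Set 1 with Cy5 gave the highest values and the swapped arrays the lowest, and no array was near 0. Its separate probes were alike: probe 717056 gave 0.88 ± 0.08 and probe 737898 gave 0.96 ± 0.15, each above 0 on 6 of 6 arrays.

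The acyl-CoA dehydrogenases, which take the first oxidative step on chains of different kind, differed from each other. Acadsb, which acts on short branched chains and also serves isoleucine breakdown, stood at 0.83, 0.70, 0.62, 0.73, 0.16 and 0.22, fitted 0.46 ± 0.06 (1.37-fold). The unswapped arrays lay between 0.62 and 0.83, and both swapped arrays were lower. Acadm, the medium-chain enzyme, stayed close to 0, at 0.14, -0.17, 0.23, 0.31, 0.14 and 0.08 (fitted 0.12 ± 0.09).

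Acadvl, the very-long-chain enzyme of the inner mitochondrial membrane, was at 0.50, 0.38, 0.30, 0.32, -0.01 and -0.02 as the mean of 3 probes (fitted 0.18 ± 0.06). The probes disagreed. Probe 479576 read 0.73, 0.89, 0.66, 0.74, 0.59 and 0.37, fitted 0.62 ± 0.07 (SE), above 0 on all arrays. Probe 476268 gave -0.06 ± 0.09 and probe 948662 gave -0.02 ± 0.09. Probe 948662 was above 0 on every unswapped array (0.06 to 0.45) and below 0 on both swapped arrays (-0.40 and -0.23). All 3 probes carry the same transcript accession in the annotation, and the median of the probes in place of the mean put Acadvl at 0.05.

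**Figure D2:**
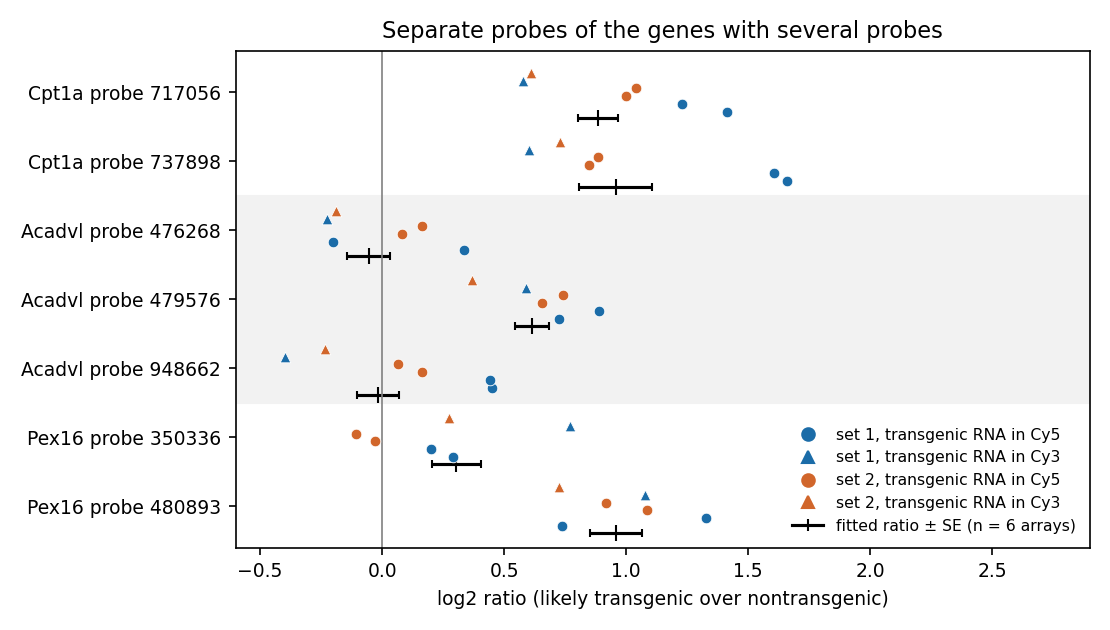
Log2 ratio of each separate probe of Cpt1a, Acadvl and Pex16 on each array (points) with the fitted ratio and its standard error (black, n = 6 arrays). The probes of Cpt1a lay together at 0.88 and 0.96, whereas 1 probe of Acadvl (0.62) and 1 of Pex16 (0.96) lay apart from the other probes of their gene.

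Of the later mitochondrial enzymes, Hadhb and Decr1 did not follow Cpt1a. Hadhb, the thiolase subunit of the trifunctional protein, which completes the cycle for long chains, stood at 0.31, 0.44, -0.12, -0.10, 0.10 and -0.39, fitted -0.01 ± 0.12. All 3 arrays of set 1 were above 0 and all 3 of set 2 below. Decr1, the mitochondrial dienoyl-CoA reductase needed for polyunsaturated chains, stood at -0.09, -1.08, -0.55, -0.47, -0.08 and -0.06, fitted -0.31 ± 0.14. It was below 0 on 6 of 6 arrays, but 3 of these values were within 0.1 of 0.

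Genes of enzymes that shift double bonds had higher ratios in set 1 than in set 2. Ech1, a dienoyl-CoA isomerase of mitochondria and peroxisomes, stood at 1.24, 1.43, 0.60, 0.76, 0.90 and 0.38, fitted 0.82 ± 0.15 (1.77-fold). Every array of set 1 was above every array of set 2. Eci2, an enoyl-CoA isomerase, mainly peroxisomal, stood at 0.78, 0.92, 0.44, 0.35, 0.19 and -0.13, fitted 0.33 ± 0.11 (1.25-fold). As for Ech1, set 1 was above set 2 within each dye orientation, and every value was lower than that of Ech1 on the same array.

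Of the 5 called genes, Phyh and Pex16 differed least between the dye orientations, with dye coefficients of 0.09 and -0.08 against 0.18 to 0.29 for the other genes. Phyh, the phytanoyl-CoA hydroxylase that starts alpha-oxidation of branched chains, stood at 0.50, 1.502, 0.87, 0.92, 0.84 and 0.69, fitted 0.86 ± 0.14 (1.81-fold). The means of the orientations were 0.95 with transgenic RNA in Cy5 and 0.77 with it in Cy3. Pex16, a peroxin that places membrane proteins in the peroxisome, stood at 0.51, 0.76, 0.53, 0.41, 0.92 and 0.50, fitted 0.63 ± 0.09 (1.55-fold), and was the only called gene of the 5 with a higher mean on the swapped arrays (0.71 against 0.55). Its probes differed: probe 480893 gave 0.96 ± 0.11, above 0 on 6 of 6 arrays, and probe 350336 gave 0.31 ± 0.10, with -0.03 and -0.10 on arrays 2A and 2B. The dye coefficient of Pex16 averages its probes, at 0.06 ± 0.11 for probe 480893 and -0.22 ± 0.10 for probe 350336.

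The calls depended on single arrays, for the 5 genes as for all rows, of which 484 were called with every array kept. Without array 1C, 0 of the 5 genes were called and 176 rows in all. Without 2A, Acadsb and Cpt1a were called (168 rows in all), and without 2B, Cpt1a and Pex16 (171 rows). Without 1A or 1B all except Ech1 were called (250 and 204 rows), and without 2C all 5 (1687 rows). Treated as a random block, with a correlation of 0.295 between arrays of a set, the set left Acadsb, Cpt1a and Pex16 called (197 rows in all). With array weights 0 of the 5 genes were called (159 rows in all). The fitted ratios moved less than the calls: with 1 array left out Cpt1a stayed between 0.87 and 0.97, Acadsb between 0.44 and 0.47, Phyh between 0.77 and 0.93, Pex16 between 0.53 and 0.74 and Ech1 between 0.69 and 0.95.

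A comparison of the sets, a contrast other than that of the genotypes but taken from the same arrays, asked whether the ratio of set 2 differed from that of set 1. By limma 0 of 6807 rows passed at adjusted p under 0.05, and 23.7% had an unadjusted p under 0.05. Of the 10 genes, 3 had such an unadjusted p, all with lower ratios in set 2: Ech1 (-0.61 ± 0.10, adjusted p = 0.0746), Hadhb (-0.49 ± 0.08, adjusted p = 0.0746) and Eci2 (-0.41 ± 0.09, adjusted p = 0.097). Set means were 1.19 and 0.58 for Ech1, 0.29 and -0.20 for Hadhb and 0.63 and 0.22 for Eci2 in sets 1 and 2. Cpt1a (-0.33 ± 0.16) and Pex16 (-0.26 ± 0.12) had adjusted p of 0.291 and 0.281, and Acadsb (-0.04 ± 0.09), Phyh (-0.12 ± 0.28), Acadvl (-0.09 ± 0.09), Acadm (0.17 ± 0.14) and Decr1 (0.06 ± 0.28) had adjusted p between 0.485 and 0.919. Set 1 lay wholly above set 2 for Ech1 and Hadhb, 2 of the 10 genes, and for 13.8% of the rows with 6 values. Fitted within each set alone, the ratio was 1.12 in set 1 and 0.53 in set 2 for Ech1, 1.03 and 0.81 for Cpt1a, 0.92 and 0.79 for Phyh, 0.78 and 0.48 for Pex16 and 0.46 and 0.45 for Acadsb.

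**Figure D3:**
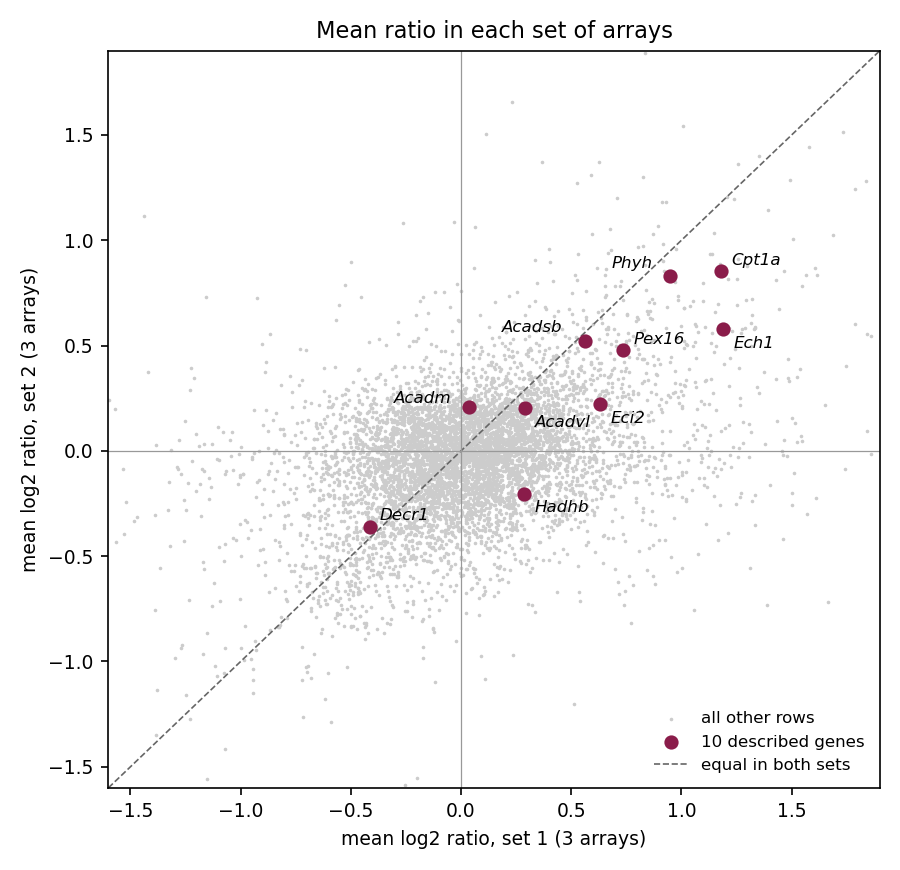
Mean log2 ratio in set 1 (horizontal, up to 3 arrays) against set 2 (vertical, up to 3 arrays) for all 6807 rows (grey) and the 10 genes (red); 72 rows lie outside the plotted range. Of the 10 genes, Ech1, Hadhb and Eci2 lie farthest below the dashed line of equality, and Acadsb and Phyh lie close to it.

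The dye comparison asked which ratios depended on the dye that carried the transgenic RNA. The dye coefficient is the shift added to the ratio with transgenic RNA in Cy5 and taken from it with the dyes swapped. It was positive for 8 of the 10 genes; the same arrays chose the genes, and the orientations are unequal in number, so nothing is read from this count. By limma 0 of the 10 genes passed at adjusted p under 0.05, and 1 of 6807 rows did, Suox (sulfite oxidase), named after its value was seen. An unadjusted p under 0.05 was found for 4 of the 10 genes and 18.2% of all rows: Eci2 (0.30 ± 0.11, adjusted p = 0.246), Cpt1a (0.29 ± 0.11, adjusted p = 0.26), Acadsb (0.26 ± 0.06, adjusted p = 0.182) and Acadvl (0.20 ± 0.06, adjusted p = 0.214). For these same 4 genes all 4 unswapped arrays lay above both swapped ones, as they did for 16.9% of the rows with 6 values. Acadm, Pex16 and Phyh had dye coefficients of 0.01 ± 0.09, -0.08 ± 0.09 and 0.09 ± 0.14. Between arrays, the median of the 10 genes ran from 0.15 on 2C and 0.18 on 1C to 0.73 on 1B.

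The surrounding pathway was read from 10 lists that held 140 genes, of which 63 were measured, the 10 genes included. In all 7 were called higher and 2 lower, and 42 of the 63 ratios were above 0, with a median of 0.11. Of the 53 genes other than the 10, 2 were called higher and 2 lower, where 4.03% and 3.09% of all rows were, and their median was 0.08. With 1 array left out, the calls over the 63 genes ran from 1 (without 1C) to 17 (without 2C) higher and from 1 to 6 lower, and with the set as a random block 3 were higher and 1 lower.

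In the carnitine shuttle, Cpt1a alone of 4 measured genes was called. The other 3, named after their values were seen, were not: Slc25a20, the carrier of the inner membrane, stood at -0.18 ± 0.08, Cpt1c at -0.13 ± 0.10 and Slc22a5, the carnitine importer, at 0.19 ± 0.11 on 5 arrays. Of 6 genes of dehydrogenases and the electron transfer flavoprotein that accepts their electrons, Acadsb alone was called and the median was 0.15. Of 5 genes listed for later mitochondrial steps 0 were called, and Decr1 had the largest ratio in size. Ech1, of mitochondria and peroxisomes, was listed with the peroxisomal enzymes and is not among them. Oxct1, which activates ketone bodies for burning, rose (0.62 ± 0.12, adjusted p = 0.0353). It stood at 1.44, 1.16, 0.80, 0.74, 0.34 and 0.08, higher in set 1 and lowest on the swapped arrays, and lost the call whenever an array other than 2C was left out (adjusted p up to 0.147) and with the set as a block (adjusted p = 0.0759).

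Of 12 peroxisomal enzymes, Ech1 and Phyh were called higher and 10 had ratios above 0, with a median of 0.24; without Ech1, Eci2 and Phyh the median was 0.22 over 9 genes. Far1, the reductase that makes the fatty alcohol for ether lipids, fell (-0.47 ± 0.07, adjusted p = 0.021), with values from -0.64 to -0.20 and both probes called (-0.40 and -0.54); it lost the call without 1A, 2A, 2B or 1C (adjusted p up to 0.0873) and with the set as a block (0.0663). Hacl1, the lyase that acts after Phyh in alpha-oxidation, named here after its value was seen, was at 0.64 ± 0.16 and above 0 on 6 of 6 arrays without passing (adjusted p = 0.0674). Among 5 peroxins and peroxisomal membrane proteins Pex16 alone was called. The other 4, named after their values were seen, were not. Pex3 and Pex19, which work with Pex16 in building the peroxisomal membrane, were at 0.08 ± 0.10 and -0.04 ± 0.12, and Pex14 was at -0.09 ± 0.07. Pxmp4 stood at 1.21 on array 1C and between -0.07 and 0.29 on the other arrays.

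**Figure D4:**
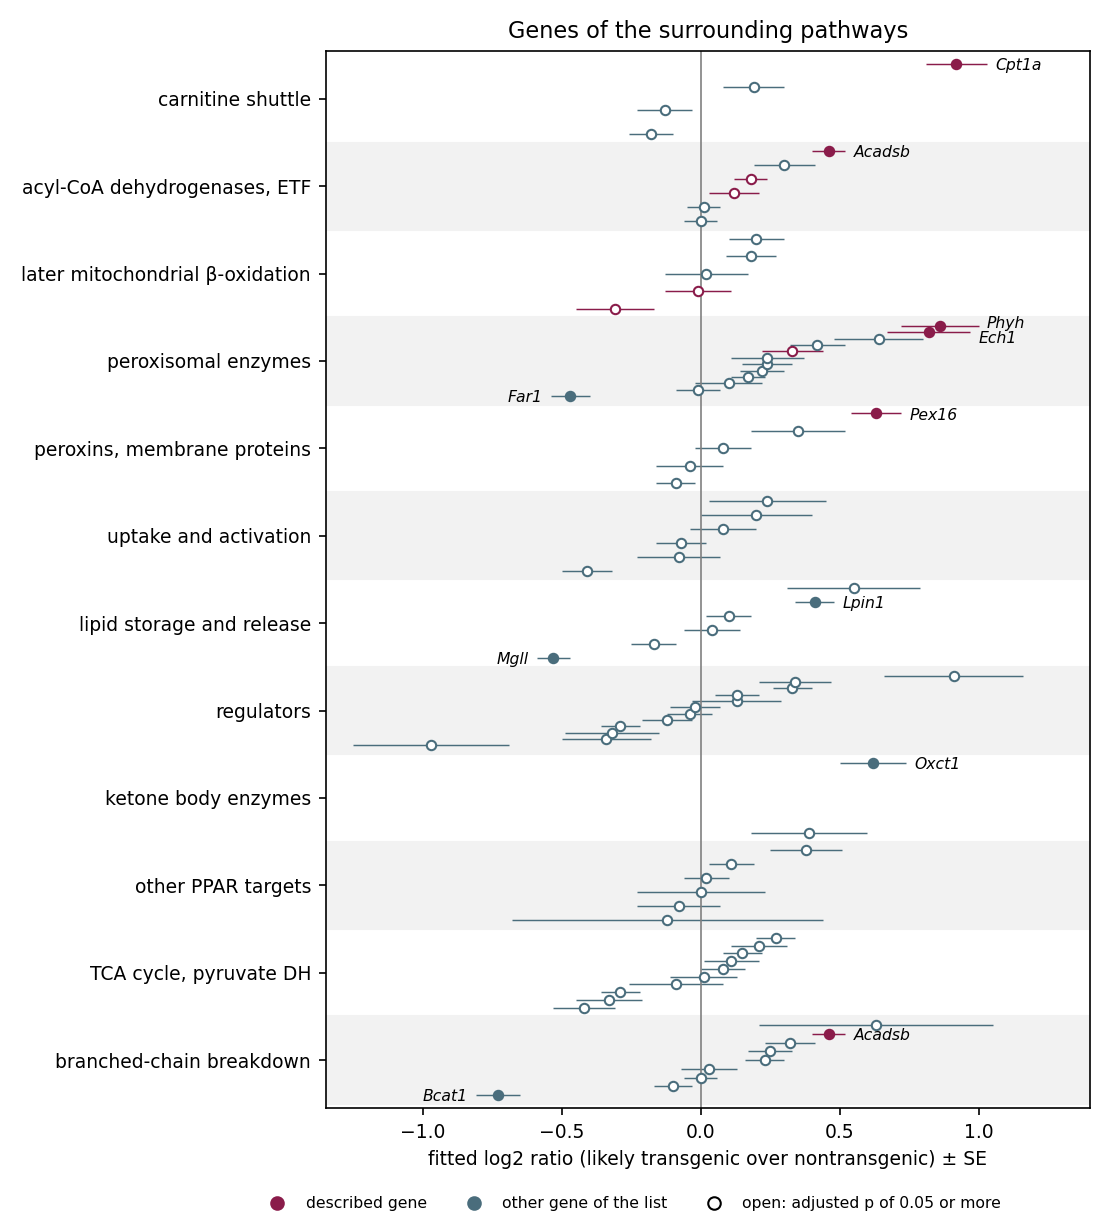
Fitted log2 ratio with its standard error (n = 6 arrays, 5 for Slc22a5) for each measured gene of 12 lists; red points are the 10 genes described, and filled points passed an adjusted p under 0.05. The peroxisomal enzymes hold 3 called genes (Phyh, Ech1 and Far1), lipid storage 2 (Lpin1 and Mgll) and branched-chain breakdown 2 (Acadsb and Bcat1), in each case with both signs.

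Genes of fat storage went both ways. Mgll, the lipase of the last step of triglyceride breakdown, fell (-0.53 ± 0.06, adjusted p = 0.0104) within a narrow range from -0.60 to -0.36, and kept the call with each array left out. Lpin1, a phosphatidate phosphatase and coactivator, rose (0.41 ± 0.07, adjusted p = 0.0271; 0.23 to 0.56), but lost the call whenever an array other than 2C was left out and with the set as a block (adjusted p = 0.0906). Uptake and activation gave 0 calls in 6 genes, and Fabp5, a fatty acid binding protein, had the largest size there (-0.41 ± 0.09, adjusted p = 0.056). It stood at -0.83, -1.16, -0.72, -0.75, -0.11 and 0.21, and its dye coefficient (-0.46) was larger in size than its fitted ratio.

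Of 12 measured regulators 0 passed. Prkaa1, a catalytic subunit of the AMP-activated kinase, had the largest size (-0.97 ± 0.28, adjusted p = 0.0964), set by -2.66 on array 1C. That value is a mean of probes, and probe 902096 lay at the floor there (-6.64), while the others read -0.54 and -0.81. Prkaa1 was at -0.45 without 1C. With floor values missing it was at -0.47, smaller in size than Pparg (0.91). Pparg, the fat-cell PPAR, stood at 1.46, 1.64, 1.01, -0.15, 0.77 and 0.88, fitted 0.91 ± 0.25 (adjusted p = 0.088), and passed without array 2B (1.10, adjusted p = 0.0261). Tested alone, its probe 890915 gave 0.73 ± 0.15 (adjusted p = 0.0462) and its probe 721051 gave 1.09 ± 0.54 (adjusted p = 0.247). The probes of Pparg disagreed on 1B and 2B, where probe 721051 read 3.16 and -1.11 and probe 890915 read 0.13 and 0.82. The enzymes that set malonyl-CoA, named after their values were seen, were at -0.29 ± 0.07 for Acaca, which makes it (adjusted p = 0.0685, below 0 on 6 of 6 arrays), and at 0.34 ± 0.13 for Mlycd, which removes it (adjusted p = 0.152; 0.11 without array 1C). Of 6 other PPAR targets 0 passed, with a median of 0.01. Ucp3, a mitochondrial carrier, was the largest of them at 0.38 ± 0.13 (adjusted p = 0.138) and at 0.15 without array 1C. Txnip and Angptl4 are named after their values were seen. Txnip was at -0.12 ± 0.56, with -3.22 on 1A and -1.36 on 2A. Tested alone, its probe 350180 gave 0.50 ± 0.09 (adjusted p = 0.0278), above 0 on every array. Angptl4 (0.00 ± 0.23) lay between -1.19 and -0.41 on the unswapped arrays and at 1.58 and 0.09 on 1C and 2C.

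Neighbouring oxidative pathways gave few calls. Of 10 genes of the tricarboxylic acid cycle and pyruvate dehydrogenase 0 passed, with a median of 0.05; Ogdh, the oxoglutarate dehydrogenase subunit, was the largest in size (-0.42 ± 0.11, adjusted p = 0.0721). Of 9 genes of branched-chain amino acid breakdown, Acadsb was called higher, and Bcat1, the cytosolic aminotransferase at the entry, fell (-0.73 ± 0.08, adjusted p = 0.00779, 1.66-fold lower) and kept the call with each array left out. Bcat1 and Acadsb, at the start and further down the same route, thus had opposite signs on all 6 arrays. Bcat2, the other aminotransferase of the list, named after its value was seen, was at 0.03 ± 0.10 (adjusted p = 0.848), above 0 on 5 of 6 arrays.

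Markers of other cells that a tracheal culture could hold were read beside these genes; those not called, other than Pparg and Cd14, are named after their values were seen. Of 6 fibroblast genes Thy1 (2.73 ± 0.21, adjusted p = 0.00411) and Mfap5 (0.81 ± 0.07, adjusted p = 0.0045) rose and kept the call with each array left out, and the median of the list ran from 0.31 to 1.16 over the arrays. The fibroblast genes Dpt (1.67 ± 0.46), Lum (0.70 ± 0.17), Col14a1 (0.07 ± 0.13) and Pdgfra (-0.02 ± 0.14) did not pass. Dpt stood at -1.01 on array 1B and between 1.83 and 2.27 on the other arrays. The separate probes of Pdgfra ran from -0.40 to 0.19. Of 4 adipocyte genes 0 passed. Pparg was the largest, and Cidec (0.06 ± 0.13) and Lep (0.13 ± 0.07) were near 0. Cidea (-0.19 ± 0.20) lay between -1.58 and -0.25 on the unswapped arrays and at 0.67 and 0.04 on 1C and 2C. Of 5 skeletal and cardiac muscle genes Mb rose (0.29 ± 0.06, adjusted p = 0.046), while Mylpf (0.43 ± 0.13), Myh7 (0.07 ± 0.06), Tnnt2 (0.00 ± 0.06) and Myh4 (-0.33 ± 0.18) did not pass. Of 3 epithelial genes Cdh1 rose (0.32 ± 0.06, adjusted p = 0.0333), while Krt19 (0.06 ± 0.07) and Scgb1a1 (0.07 ± 0.19) did not pass. Scgb1a1 lay below 0 on the unswapped arrays and above 0 on both swapped arrays. Of 5 macrophage genes 0 passed; Cd14 was at -0.22 ± 0.09, at -0.093 without 1C, and passed without 2C (-0.35, adjusted p = 0.022). Cnn1, calponin of smooth muscle, rose (0.59 ± 0.10, adjusted p = 0.028) and Smtn (-0.05 ± 0.08) and Cald1 (-0.12 ± 0.06) did not pass. Cdh1, Mb and Cnn1 lost their calls whenever an array other than 2C was left out and with the set as a block (adjusted p = 0.101, 0.122 and 0.0602). The part of a changed mix of cells in the ratios of the 10 genes was not tested, and more cells of a type and more RNA per cell cannot be told apart in such cultures.

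The mean profile of the 10 genes over the arrays was 0.63, 0.63, 0.38, 0.42, 0.38 and 0.19. Among 5604 other genes with 6 values, the nearest by root-mean-square distance were Fads1, a fatty acid desaturase (distance 0.081), Creld2, a protein of the endoplasmic reticulum (0.086), Pan2, a deadenylase subunit (0.088), Pipox, a peroxisomal oxidase of pipecolic acid and sarcosine (0.098), and Vps25, a sorting protein of endosomes (0.101). Fads1 stood at 0.73, 0.58, 0.49, 0.32, 0.34 and 0.14, and Pipox at 0.71, 0.65, 0.28, 0.27, 0.50 and 0.22. These 5 were picked for that likeness, so the shared pattern is no result.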

How the data were processed

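Each probe has a deposited log2 ratio on each array. RNA was copied to cDNA, labelled with Cy3 or Cy5 and hybridised competitively, per the labels. Scanner, background correction, normalization and filters: not given in the sources used here; array medians between -0.0012 and 0.0007 show that the authors' values were already centred, and the lowest value is that of a ratio of 0.01. Spot intensities were not used here, so precision is limited by the number of arrays. The 10 genes and all gene lists were chosen with earlier results of these data known.

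Probes of 1 symbol were averaged per array; 0 symbols had to be updated through the GRCm38.p6 gene table. Rows measured on 4 or more arrays, in both orientations (6807, of which 5644 carried 1 symbol) were fitted with limma 3.58.1 in R 4.3.3 (lmFit, eBayes), with a genotype and a dye coefficient and, for the sets, a further set term. Adjusted p-values are Benjamini-Hochberg over all rows, with a threshold of 0.05. The fit was tested on simulated data. Named were the 10 genes, each called gene of a list, the largest in size of a list with none, and the 5 nearest profiles; further genes are marked as such. Alternatives were arrays left out, the set as a block, no dye term, turned columns, other handling of floor, probes, scale and filter, array weights, 1 orientation and single sets. Figures used Python 3.11.15 and matplotlib 3.10.9. A check of the overexpressed gene is not reported here.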

Additional observations from a re-analysis of the deposited data

Results flagged for a closer look

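Hadhb had ratios above 0 on all 3 arrays of set 1 and below 0 on all 3 arrays of set 2. The difference of set 2 minus set 1 was -0.488 ± 0.083 and did not pass in limma (adjusted p = 0.0746).

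Acadvl had ratios above 0 on all 4 unswapped arrays and below 0 on both swapped arrays, where it stood at -0.01 and -0.02. Its dye coefficient was 0.195 ± 0.062 and did not pass in limma (adjusted p = 0.214).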

How the results depend on the processing

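The counts of called features changed with most settings. For all features (484 called) they were 168 to 1687 with 1 array left out, 197 under a replicate block of set, 159 with array weights, 1049 on the unswapped arrays, 1057 and 907 in sets 1 and 2 alone, and 1 with arrays 1C and 2C turned. For the 10 genes (5 called) they were 0 to 5 with 1 array left out, 3 with the block, 3 in set 1 alone, 7 on the unswapped arrays (Acadvl and Eci2 added), and 0 with array weights or turned arrays. For the 63 genes of the pathway lists, higher calls (7) were 1 to 17, 3 with the block, 12 on the unswapped arrays, 12 in set 1 alone, and 0 with weights or turned arrays. Lower calls (2) were 1 to 6, 1 with the block, 6 on the unswapped arrays, 4 with arrays scaled to one spread, and 0 with weights or turned arrays. For the set difference (0 called) scaling gave 3, and for dye (1 called) 0 to 990 were called: 0 with floor values missing and, with 1 array left out, 1 to 990 (the highest without 2C). The cause was not tested. Turned arrays exchange the genotype and dye terms by construction, and reversed Pex16 (-0.079), Far1 (0.113), Mgll (0.033), Prkaa1 (0.666), Ucp3 (-0.319), Bcat1 (0.210), Thy1 (-0.098), Cd14 (0.0064), Acaca (0.063) and Mlycd (-0.190). Hadhb, fitted at -0.01, also changed sign: it was above 0 without 2A, 2B or 2C (up to 0.116), without the dye term (0.041), with turned arrays (0.141), on the unswapped arrays (0.135) and in set 1 alone (0.238). List genes named after their values were seen, other than Hacl1, Acaca and Mlycd, were not followed through these settings. With 6 arrays and no intensities, the signal behind a ratio is unknown.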
